A study of Drosophila melanogaster with 8 samples.

Results

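The apoptosis genes followed here were 10 named genes of the Drosophila cell death machinery, out of 18358 annotated genes. They were the killer genes rpr (reaper), hid, grim and skl (sickle), the inhibitors Diap1 and Diap2, the adaptor Dark, and the caspases Dronc, Drice and Dcp-1. They were chosen by name in the Ensembl gene models for the dm6 genome, and the rule used no measured value. Earlier results of these data were, however, known when they were chosen. NELF-E peaks at their transcription start sites (TSS) and over their gene bodies were read in 4 ChIP-seq libraries from Kc167 cells, a Drosophila line of embryonic origin. There were 2 libraries from mock-treated cells, which were transfected without any siRNA, and 2 libraries from cells transfected with an siRNA against AGO2 (Argonaute2). The 4 inputs of these libraries were not analysed here. Nothing in the labels says that the replicates came from separate cultures, so a spread or a p-value given here measures only the spread between these libraries, which may be technical.

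In Drosophila, a death signal turns on rpr, hid, grim and skl, whose products share a short motif at the amino terminus that binds Diap1. Diap1 otherwise holds the initiator caspase Dronc and the effector caspases in check, and Dark assembles Dronc into the active complex. NELF, of which NELF-E is a subunit, holds RNA polymerase II just downstream of the TSS, and a gene that carries it can hold a paused polymerase before it is induced.

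NELF-E peaks were called near a TSS of most of the 10 genes, but in every library at only hid among the killers. A start peak, meaning a peak that overlapped the 250 bp on either side of an annotated TSS, was found in all 4 libraries at 7 of the 10 genes, beside 27.6% of all annotated genes and 34% of protein-coding genes. Those genes were hid, Diap1, Diap2, Dark, Dronc, Drice and Dcp-1. The rpr gene had a start peak in 1 mock and 1 knockdown library, a pattern held by 1.26% of all genes. No start peak was called at grim or skl in any library, which was also so at 61.6% of all genes and 53.2% of protein-coding genes. Thus 1 of the 4 killers and 6 of the 6 other members had a start peak in every library, where the peak at Dcp-1 lies between its TSS and that of another gene and cannot be assigned to either. The killer count was near the share over all genes. Among 4 further caspases outside the 10 members, 1 likewise had a start peak in every library and 2 had none in any. With chosen genes in both classes, the difference between killers and other members was not tested. A gene without a peak is one where no signal passed the threshold of the peak caller at that depth, which is not the same as no NELF-E.

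By library, 8, 7, 7 and 8 members had a start peak in mock 1, mock 2, knockdown 1 and knockdown 2. The shares over all genes were 37.8%, 33.4%, 29.5% and 31.2%. No member had a start peak that was shared by the mock libraries and absent after knockdown, against 2.22% of all genes, and none showed the reverse, against 0.0163%. A peak overlapping the gene body at any base was called in all 4 libraries for the same 7 genes, against 27.1% of all genes. The start peaks themselves met this rule, so it is not separate occupancy. Only Diap1 had body peaks beyond its start peaks, in the mock libraries.

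The DNA at the TSS of the killers and of 3 of the occupied members is shown first, because the occupied and unoccupied starts can be set beside each other in it. Each line runs from 100 bases before the TSS through the first 30 bases of the transcript, 5′ to 3′ along the gene, and was read from the RefSeq Release 6 assembly, whose coordinates are those of dm6. Capitals mark matches on either strand to GAGAG (the GAGA factor site), TATAAA (the TATA box), TCAGT (the core of the initiator) and CGNNCG (a loose form of the pause button), where neighbouring or overlapping matches run together. The sequences of Diap2, Dark and Dcp-1 are not shown.

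rpr (chr3L:18398406-18398535, minus strand): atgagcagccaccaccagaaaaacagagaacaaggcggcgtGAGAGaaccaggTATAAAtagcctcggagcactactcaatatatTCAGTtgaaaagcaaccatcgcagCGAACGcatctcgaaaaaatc
hid (chr3L:18185612-18185741, minus strand): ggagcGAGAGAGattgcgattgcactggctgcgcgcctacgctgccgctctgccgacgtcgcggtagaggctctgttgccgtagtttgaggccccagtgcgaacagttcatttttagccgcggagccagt
grim (chr3L:18304388-18304517, minus strand): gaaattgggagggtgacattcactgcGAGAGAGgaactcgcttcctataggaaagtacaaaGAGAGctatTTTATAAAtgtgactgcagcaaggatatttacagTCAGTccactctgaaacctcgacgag
skl (chr3L:18439913-18440042, minus strand): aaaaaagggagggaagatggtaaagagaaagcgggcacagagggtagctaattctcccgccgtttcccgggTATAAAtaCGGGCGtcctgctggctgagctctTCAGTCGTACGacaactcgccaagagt
Diap1 (chr3L:16046817-16046946, minus strand): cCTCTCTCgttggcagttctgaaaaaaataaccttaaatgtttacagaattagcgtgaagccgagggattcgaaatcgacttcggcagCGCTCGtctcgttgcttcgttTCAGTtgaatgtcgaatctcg
Dronc (chr3L:9968379-9968508, plus strand): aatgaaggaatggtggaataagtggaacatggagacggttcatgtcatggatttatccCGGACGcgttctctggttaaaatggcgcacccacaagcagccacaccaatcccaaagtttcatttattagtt
Drice (chr3R:29799558-29799687, plus strand): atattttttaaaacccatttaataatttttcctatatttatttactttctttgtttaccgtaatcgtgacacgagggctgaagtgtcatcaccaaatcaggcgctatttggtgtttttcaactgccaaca

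TATAAA stood in the windows of rpr, grim and skl, the killers without a start peak in every library. Its first base lay 47, 28 and 29 bases before the TSS. The windows of hid, Diap1, Dronc and Drice, which were occupied in all 4 libraries, held no TATAAA. Among the 23697 annotated starts of all genes, 19.6% held TATAAA in such a window. A start peak in all 4 libraries was found at 17.6% of starts with it and at 29.3% of starts without it.

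GAGAG was present at rpr, hid and grim and, on the opposite strand, at Diap1. It was held by 17.7% of all starts, of which 34.3% were occupied in all 4 libraries, beside 25.4% of the starts without it. GAGAG thus stood at occupied and unoccupied killers alike. TCAGT stood at rpr, grim, skl and Diap1 and at 33.5% of all starts, of which 25.0% were occupied beside 28.0% of the rest. Its first base lay 15 bases before the TSS at rpr and at transcript bases 5, 4 and 10 at grim, skl and Diap1. CGNNCG stood at rpr, skl, Diap1, Dronc and Dcp-1 and at 26.6% of all starts, of which 35.4% were occupied beside 24.0% of the rest. In the printed windows it began 42 and 12 bases before the TSS at Dronc and Diap1. At skl it began 21 bases before the TSS and at transcript base 9, and at rpr at base 10. A match was taken anywhere in the window. It describes the letters and does not show that a factor binds there.

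Depth differed between the groups and touches each value that follows. The deposited lists hold no read totals, so their depth was taken from the background level that the peak caller set for the whole genome, expressed as fragments stacked at 1 position. It was 4.46 and 2.19 fragments in mock 1 and mock 2, and 1.18 and 1.48 fragments in knockdown 1 and knockdown 2. Both mock libraries were deeper than both knockdown libraries, so depth and treatment cannot be told apart by splitting the libraries. The lists held 5904 to 7944 peaks, and the lowest summit called held 14, 9, 6 and 7 fragments in the same order of libraries. The height of a peak was therefore given as its percentile by score among all peaks of its own list, and beside it as the number of fragments at its summit. The score is 10 times the −log10 q-value of the peak, so it grows with depth, and the fold is the summit over the local background. The TSS of AGO2 itself held a start peak at percentiles 71.4 and 70.1 in the mock libraries and 73.4 and 56.7 in the knockdown libraries, which does not measure the knockdown.

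**Figure D1:**
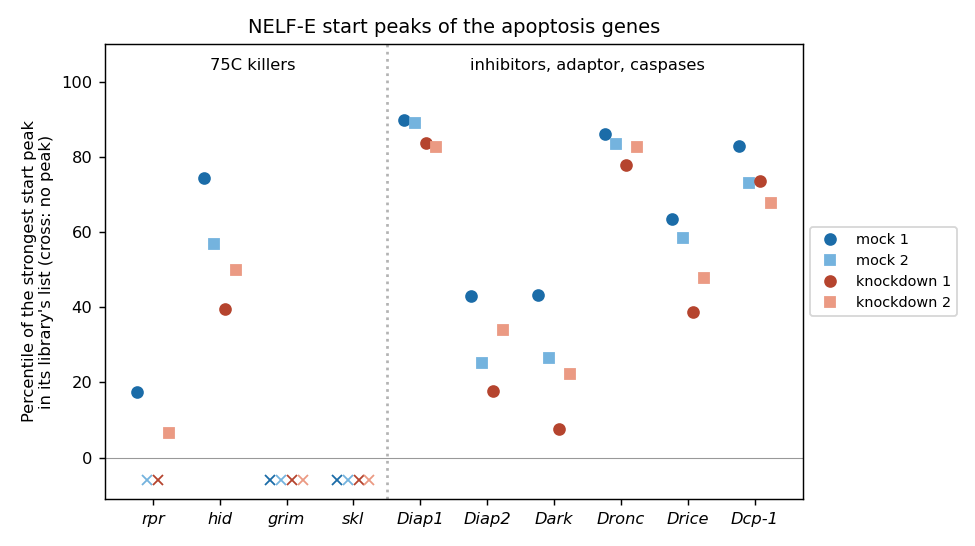
Percentile of the strongest start peak of each apoptosis gene within its library's own peak list (vertical axis, percent), with 1 symbol for each of the 2 mock (blue) and 2 AGO2 knockdown (red) libraries; a cross below 0 marks a library without a start peak. Among the killers on the left, hid alone has 4 symbols and grim and skl have only crosses, while Diap1 stays between 82.5 and 89.8.

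The killers lie on chromosome arm 3L in cytological region 75C, all on the minus strand, between positions 18167745 and 18439942, a span of 272 kb with 17 annotated genes. The hid gene (head involution defective, FBgn0003997, 3L from 18167745 to 18185641) had a single peak in each library, at its only annotated TSS. Its percentile was 74.3 in mock 1, 56.7 in mock 2, 39.6 in knockdown 1 and 49.8 in knockdown 2. Both knockdown values lay below both mock values. The mean was 65.5 ± 12.5 in mock cells and 44.7 ± 7.21 in knockdown cells (SD, n = 2 each), a difference of −20.8 percentile points. Without mock replicate 1 it was −12.03 points. The exact permutation test over the libraries gave p = 0.333, the smallest value it can reach with 2 against 2, so this test could not call a difference for any member.

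At the hid summit, 99 and 43 fragments were stacked in mock cells and 16 and 22 after knockdown. The fold was 15.3 and 8.77 in mock cells and 7.78 and 9.27 after knockdown, and these groups overlapped. Divided by the genome-wide background of each library, the summit stood 22.2 and 19.6 times above it in mock cells and 13.6 and 14.9 times above it after knockdown, a ratio of the means of 0.679 (exact permutation test, p = 0.333). Among the 7 members with a start peak in all 4 libraries, hid was the only one with both knockdown libraries below both mock libraries on this scale, which was so at 12.1% of the 5062 genes that had a start peak in every library. Depth moved with treatment in these libraries, and its part in the hid values was not tested.

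The hid peak was centred upstream of its gene. Its summit lay 54, 60, 65 and 81 bp upstream of the TSS in mock 1, mock 2, knockdown 1 and knockdown 2, inside the sequence printed above. Over all genes with a start peak, the median summit was 70 to 78 bp downstream, and only 17.6% to 21.0% of genes had a summit 50 bp or more upstream. The hid peak covered the TSS in all 4 libraries and was 262 to 436 bp wide.

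The rpr gene (reaper, FBgn0011706, 3L from 18397535 to 18398435) was at the edge of detection. In mock 1 its start peak was at percentile 17.5, with 23 fragments at the summit, a fold of 4.34 and a summit 53 bp downstream of the TSS. In knockdown 2 it was at percentile 6.47, with 9 fragments, a fold of 4.03 and a summit 100 bp upstream. The mock 1 peak covered the TSS, whereas the knockdown 2 peak lay wholly upstream of it. No peak was called in mock 2 or knockdown 1, so each group had a start peak in 1 of 2 libraries.

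The rpr fragments were also set on the depth of the libraries without a call. Scaled by the background, the 23 fragments of mock 1 correspond to 11.3 in mock 2, where the lowest summit called held 9, and to 6.09 in knockdown 1, where the lowest held 6. The 9 fragments of knockdown 2 correspond to 13.3 in mock 2 and 7.18 in knockdown 1. The scaled values were thus at or above the lowest summit called in both libraries. The library mock 2, which lacked a start peak, was deeper than knockdown 2, which had one. The part of depth in the missing calls was not tested.

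The grim gene (FBgn0015946, 3L from 18302719 to 18304417) and skl (FBgn0036786, 3L from 18438561 to 18439942) stood far from any peak. The summit nearest to the grim TSS was 60.6 kb away in mock 1, 119 kb away in mock 2 and in knockdown 1, and 94.1 kb away in knockdown 2. For skl, the nearest summit was 41.6 kb away in mock 1 and 41.4 kb away in knockdown 2, which was the rpr peak in both, and 182 kb away in the 2 libraries without it. The lowest summit called anywhere held 14, 9, 6 and 7 fragments in mock 1, mock 2, knockdown 1 and knockdown 2, and a lower one at grim or skl was not detectable at this depth.

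**Figure D2:**
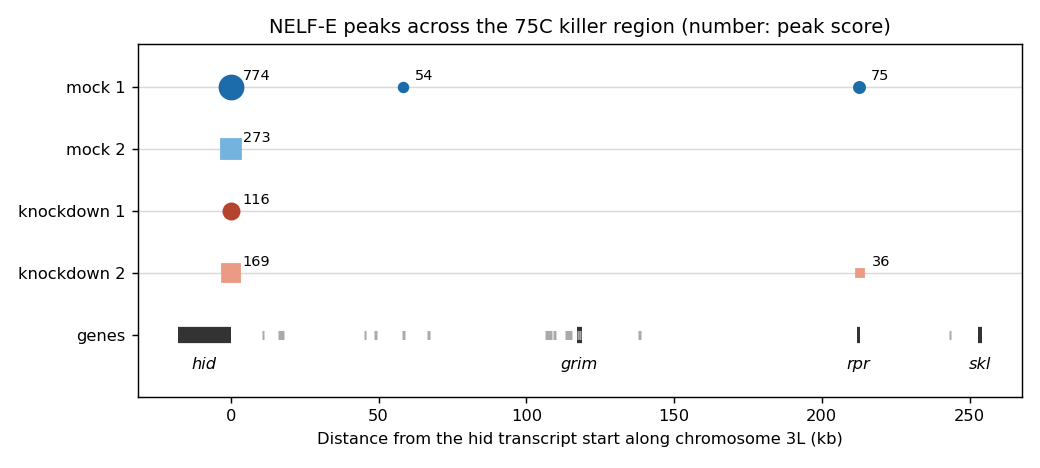
NELF-E peaks across the 75C killer region, with 1 row for each library and the genes in the bottom row (killers black, other genes grey). The horizontal axis is the distance from the hid TSS in kb. Symbol size rises with the percentile in the library's own list, and the number beside it is the peak score. The hid peak (scores 774, 273, 116 and 169) is the only one present in all 4 rows, and nothing was called between 58.1 kb and 213 kb, where grim lies.

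Across the whole 75C span, 3 peaks were called in mock 1, 1 in mock 2, 1 in knockdown 1 and 2 in knockdown 2. The counts overlapped, with means of 2 ± 1.41 and 1.5 ± 0.707 (SD, n = 2 each), a difference of −0.5 peaks (exact permutation test, p = 1). This direction turned to 0.5 without mock replicate 1 and vanished, at 0, without knockdown replicate 1. The density was 11.0, 3.67, 3.67 and 7.35 peaks per Mb in mock 1, mock 2, knockdown 1 and knockdown 2, while arm 3L as a whole held 55.3, 46.8, 38.8 and 40.9 per Mb. The region thus held fewer peaks per Mb than the arm in every library, and these densities were not corrected for the number of TSSs. Beyond the killers, its single peak was in mock 1 at the start of the long noncoding RNA lncRNA:CR45936, from 18243713 to 18243859, with 20 fragments, a fold of 3.80 and a percentile of 10.6.

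The inhibitors differed from each other more than either did between treatments. Diap1 (FBgn0260635, 3L from 16038410 to 16051034, minus strand), the ubiquitin ligase that binds and restrains caspases, carried the highest start peak of the members by mean percentile, although Dronc stood slightly above it in knockdown 2. Its percentile was 89.8 in mock 1, 88.9 in mock 2, 83.7 in knockdown 1 and 82.5 in knockdown 2. Both knockdown values lay below both mock values, with means of 89.4 ± 0.596 and 83.1 ± 0.899 (SD, n = 2 each) and a difference of −6.25 points (exact permutation test, p = 0.333). The summit held 199 and 118 fragments in mock cells and 76 and 69 fragments after knockdown. Relative to the background that was 44.6 and 53.9 in mock cells and 64.4 and 46.6 after knockdown, where the groups overlapped. Diap1 therefore lay below in rank and not in height over background.

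Diap1 has 5 annotated TSSs, and the high peak covered the middle one, at 16046846, whose sequence is printed above. Its summit lay 12, 26 and 42 bp downstream in mock 1, mock 2 and knockdown 2 and 14 bp upstream in knockdown 1. A second, much lower peak covered the TSS at 16050671 in 3 libraries, with 33, 15 and 11 fragments in mock 1, mock 2 and knockdown 1 and scores of 88, 68 and 54. It was not called in knockdown 2, although those summits scale to 10.1 to 13.8 fragments there, above the lowest summit of 7. The other 3 TSSs of Diap1 were covered by no peak.

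In introns of Diap1, further peaks were called in the mock libraries only. They were at 16045214 to 16045425 with a score of 32 and 16045714 to 16045876 with a score of 41 in mock 1, and at 16045086 to 16045329 with a score of 55 in mock 2. Their percentiles were 3.18, 5.66 and 14.0, near the bottom of the deeper lists. Beyond the upstream end of Diap1, the divergent gene Mbs, which encodes a subunit of myosin phosphatase, starts 925 bp away and had its own peak in all 4 libraries at percentiles 74.9 to 83.5. It was not counted for Diap1.

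Diap2 (FBgn0015247, 2R from 15932170 to 15934825, minus strand), an inhibitor of the same family that also acts in the immune deficiency pathway, had a low start peak. Its percentile was 42.9 in mock 1, 25.3 in mock 2, 17.6 in knockdown 1 and 34.0 in knockdown 2, and the groups overlapped. The difference was −8.28 points (exact permutation test, p = 0.667), and it turned to 0.541 without mock replicate 1 and was −0.0762 without knockdown replicate 1. It was −17.1 and −16.5 without mock replicate 2 and without knockdown replicate 2. The summit held 62, 31, 15 and 26 fragments in the same order and lay 154 to 179 bp downstream of the nearer of its 2 TSSs. The peak covered a Diap2 TSS in mock 1 alone, and in the other libraries it began downstream of both.

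**Figure D3:**
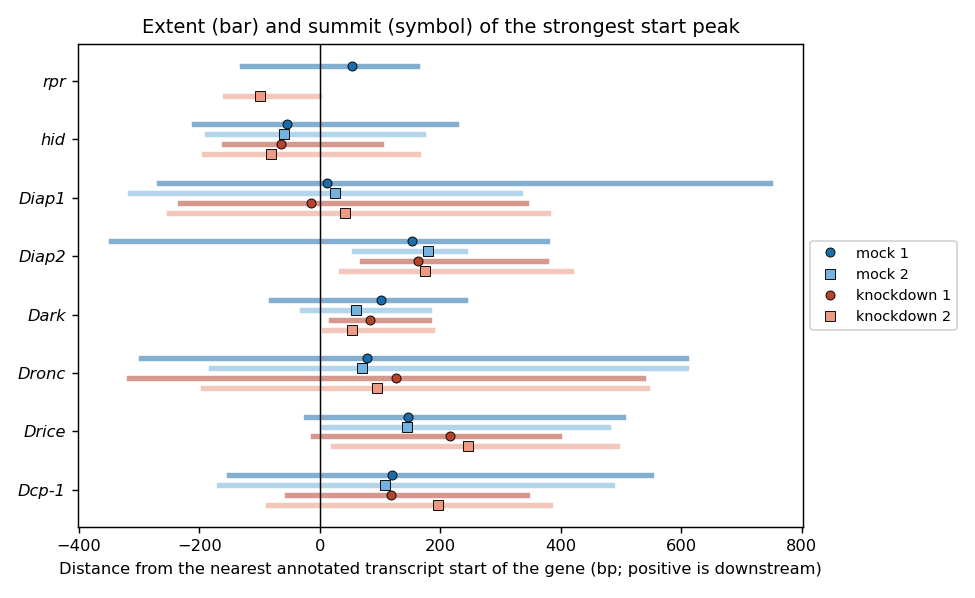
Extent (bar) and summit (symbol) of the strongest start peak of each member in each library, against the distance in bp from the nearest annotated TSS of the gene, with downstream to the right. The hid summits lie 54 to 81 bp upstream in all 4 libraries, while those of Diap2 and Drice lie 145 bp or more downstream; grim and skl had no start peak and are not drawn.

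Dark (FBgn0263864, 2R from 17020027 to 17026703, plus strand), the Apaf-1 homologue that recruits Dronc, had the lowest mean percentile of the start peaks present in all 4 libraries, although Diap2 stood slightly below it in both mock libraries. Its percentile was 43.1 in mock 1, 26.6 in mock 2, 7.62 in knockdown 1 and 22.2 in knockdown 2. Both knockdown values lay below both mock values, with means of 34.9 ± 11.7 and 14.9 ± 10.3 (SD, n = 2 each) and a difference of −20.0 points (exact permutation test, p = 0.333). This difference was −11.7 without mock replicate 1, −12.7 without knockdown replicate 1, −5.75 with lists of the same length and −3.54 with ranks over shared start peaks. The summits held 45, 18, 11 and 13 fragments and the folds were 7.12, 5.61, 3.97 and 5.26. Divided by the background, the mock values of 10.1 and 8.22 enclosed the knockdown values of 9.32 and 8.78.

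The Dark summit lay 53 to 102 bp downstream of the TSS, in the first exon. The peak reached over the TSS in mock 1 and mock 2 but began downstream of it in both knockdown libraries, where it was 164 and 180 bp wide, against 324 and 211 bp in mock cells. The divergent gene Paip1, which encodes a partner of the poly(A)-binding protein, starts 505 bp upstream and had its own peak in all 4 libraries at percentiles 39.7 to 58.5.

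Among the member caspases, Dronc (FBgn0026404, 3L from 9968479 to 9971002, plus strand), the initiator caspase, was the highest. Its percentile was 86.0 in mock 1, 83.4 in mock 2, 77.7 in knockdown 1 and 82.5 in knockdown 2. Both knockdown values lay below both mock values, with means of 84.7 ± 1.84 and 80.1 ± 3.41 (SD, n = 2 each) and a difference of −4.59 points (exact permutation test, p = 0.333). It was −2.17 without knockdown replicate 1, −7.00 without knockdown replicate 2 and −1.16 with lists of the same length. The direction was the opposite on the scale of the background. There the summit stood at 35.9 and 44.7 in mock cells and at 44.9 and 47.3 after knockdown, so both knockdown values lay above both mock values, a pattern shown by 35.4% of the genes with a start peak in every library. The ratio of the means was 1.14 (exact permutation test, p = 0.333).

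The Dronc summits held 160, 98, 53 and 70 fragments and lay 71 to 126 bp downstream of the TSS, near the median place of all genes. The peak was broad, at 739 to 906 bp, where the median start peak of all genes was 439 to 535 bp wide. Of the members, Dronc had the widest peak in mock 2, knockdown 1 and knockdown 2, and Diap1 had the widest in mock 1, at 1015 bp.

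Drice (FBgn0019972, 3R from 29799658 to 29801584, plus strand), the main effector caspase, stood in the middle of the lists. Its percentile was 63.4 in mock 1, 58.4 in mock 2, 38.6 in knockdown 1 and 47.6 in knockdown 2. Both knockdown values lay below both mock values, with means of 60.9 ± 3.52 and 43.1 ± 6.38 (SD, n = 2 each) and a difference of −17.8 points (exact permutation test, p = 0.333), which was −9.15 with lists of the same length. The folds were 8.02 and 7.97 in mock cells and 5.60 and 6.22 after knockdown. Drice and Dark were the 2 members whose folds separated in that way, and the share over all genes was not computed. By percentile of the fold, 5 of the 7 members lay below and 0 above, beside 33.9% and 14.2% of genes. The summits held 96, 51, 24 and 32 fragments, and over the background they overlapped, at 21.5 and 23.3 in mock cells and 20.3 and 21.6 after knockdown.

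The Drice summit lay further into the gene than at most genes. It was 146 and 145 bp downstream of the TSS in the mock libraries and 217 and 247 bp downstream in the knockdown libraries. Between 17.9% and 21.8% of all genes with a start peak had a summit 140 bp or more downstream. The bases printed above for Drice therefore lie upstream of its summits, and they hold none of the motifs searched.

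Dcp-1 (FBgn0010501, 2R from 23551313 to 23553547, plus strand), the second effector caspase, had a high start peak. Its percentile was 82.9 in mock 1, 73.2 in mock 2, 73.6 in knockdown 1 and 67.7 in knockdown 2. The groups overlapped, with means of 78.0 ± 6.87 and 70.7 ± 4.15 (SD, n = 2 each) and a difference of −7.36 points (exact permutation test, p = 0.667). It was −2.50 without mock replicate 1, −12.2 without mock replicate 2, −4.42 without knockdown replicate 2 and −2.88 with lists of the same length. The summits held 146, 79, 50 and 40 fragments. The whole gene lies inside pita, a zinc finger gene on the opposite strand, and a pita transcript starts 238 bp downstream of the Dcp-1 TSS. The Dcp-1 summits lay 109 to 197 bp downstream of its own TSS, between the 2 starts, so the peak cannot be assigned to either gene.

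**Figure D4:**
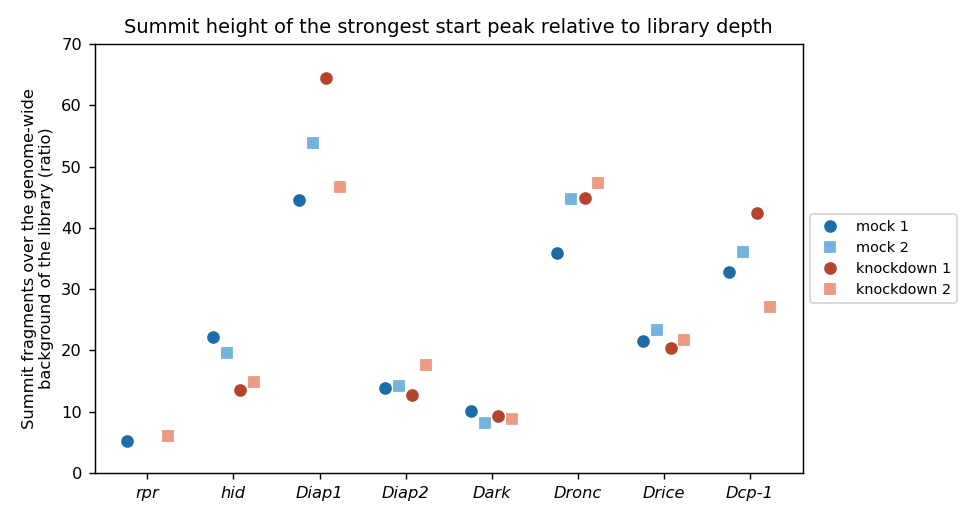
Summit fragments of the strongest start peak divided by the genome-wide background of the library (vertical axis, a ratio), with 1 symbol for each library that had the peak; grim and skl had none. The knockdown symbols of hid (13.6 and 14.9) lie below the mock symbols (22.2 and 19.6), those of Dronc lie above, and at Diap1, Diap2, Dark, Drice and Dcp-1 the groups overlap.

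Across the 7 members with a start peak in every library, the order by mean percentile was Diap1 (86.2), Dronc (82.4), Dcp-1 (74.3), hid (55.1), Drice (52.0), Diap2 (30.0) and Dark (24.9). The ranges over the 4 libraries overlapped for every pair of neighbours in this order. Within each of the 4 libraries, however, Dronc stood above Dcp-1, Dcp-1 above hid and Drice above Diap2. The median of the members was 55.1, beside 65.5 for the 5062 genes with a start peak in every library, whose quartiles were 45.7 and 83.1.

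The knockdown percentiles lay below the mock percentiles at 5 of the 7 members, hid, Diap1, Dark, Dronc and Drice, and above them at none. Over all genes the shares were 43.1% below and 7.07% above, so a value below was common throughout the lists. The median difference was −8.28 points for the members and −4.90 points for all genes. The lists differ in length, and both mock lists were longer than both knockdown lists. All ended near the same q-value threshold, and the part of list length in these ranks was not tested.

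When each list was held to the same number of peaks, the members below were 3, which were hid, Diap1 and Drice, beside 19.3% of genes, with 23% above. Ranks over the shared start peaks alone gave the same 3 genes, beside 20.3% of genes below and 22.8% above. On ranks of the shared start peaks, hid stood at 54.0 and 36.5 in mock cells and 25.4 and 32.4 after knockdown. Drice stood at 35.9 and 38.8 against 24.6 and 30.0, and Diap1 at 81.9 and 82.6 against 78.4 and 74.9. Of these 3 genes, only hid was also below on the scale of fragments over background. Dark and Dronc, by contrast, overlapped on shared ranks, at 10.4 and 6.78 against 2.73 and 7.32 for Dark.

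A further 31 genes of the cell death pathway were read in the same way, from a list of caspases, Bcl-2 family genes, regulators, upstream activators, the TNF branch, execution genes and engulfment genes. A start peak was present in all 4 libraries at 18 of them, in some libraries at 6 and in none at 7. Over all genes the shares were 27.6%, 10.8% and 61.6%. The median of the mean percentiles over the 18 was 72.1. The knockdown percentiles lay below the mock percentiles at 7, above them at 2 and overlapped at 9. Over all genes with a start peak in every library, 43.1% lay below and 7.07% above.

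By mean percentile, the highest start peaks of that list were at wgn (95.7), a receptor of the TNF branch, Strica (91.8), a caspase with a long prodomain, ced-6 (89.4), an engulfment adaptor, and Cyt-c-p (82.0), a cytochrome c. The genes wgn and Strica were the 2 with knockdown percentiles above the mock ones. For wgn the values were 87.2 and 97.9 in mock cells and 98.2 and 99.4 after knockdown. For Strica they were 86.2 and 90.9 against 95.5 and 94.5. The lowest 4 were eIF3m (11.1), a translation initiation factor subunit also known as Tango7, crq (30.9), a receptor for engulfment, Det (45.2) and p53 (46.6), the transcription factor that induces rpr after DNA damage.

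The 7 genes of the list without a start peak in any library were Decay and Damm, which are caspases, Corp, an antagonist of p53, grnd, the second TNF receptor, Drep2 and Drep3, which belong to the DNA fragmentation factor family, and Ced-12, an engulfment gene. Of the 4 listed caspases beyond the members, Strica had a start peak in all 4 libraries and Dredd, the caspase of the immune deficiency pathway, in 3. At Dredd it was called at 49.2 and 23.2 in the mock libraries and 18.4 in knockdown 1.

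**Figure D5:**
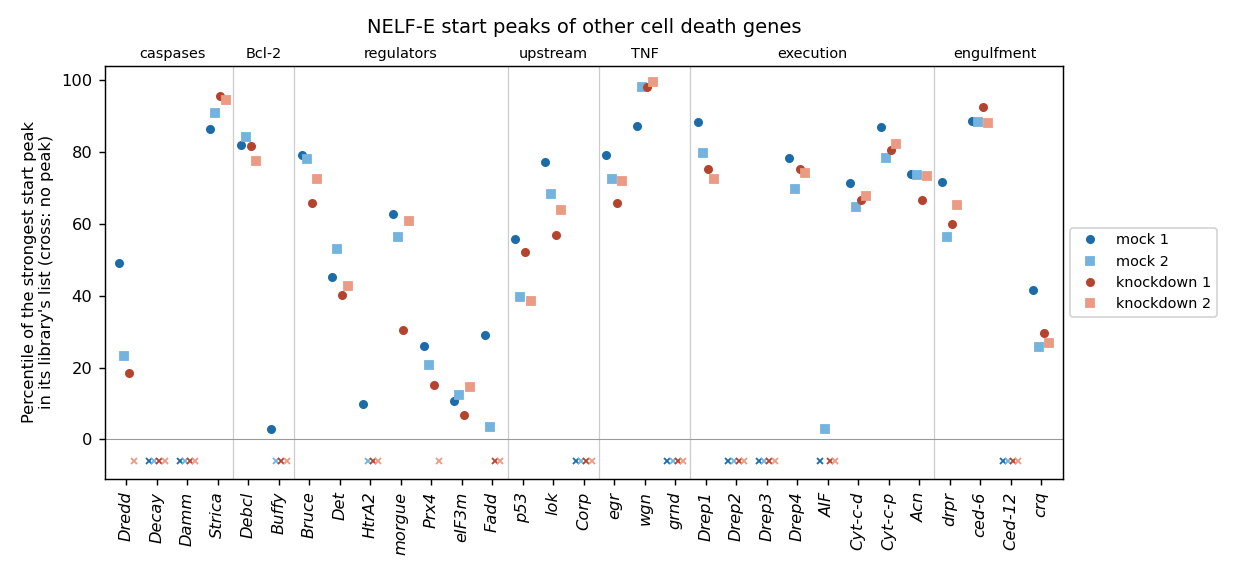
Percentile of the strongest start peak of 31 other cell death genes within each library's own list (vertical axis, percent), grouped by role, with mock libraries in blue and AGO2 knockdown libraries in red; a cross below 0 marks a library without a start peak. At 18 genes all 4 symbols are present, from eIF3m near the bottom to wgn near the top, and 7 genes have crosses only.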

How the data were processed

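NELF-E ChIP-seq was read from 1 deposited peak list for each of 4 immunoprecipitations. The authors trimmed 50 bp reads with cutadapt (version 1.10 in the submitters' processing notes), aligned them to dm6 with Bowtie2, kept mapping quality 20 or more, removed duplicates with Picard (2.11.0) and called peaks per replicate against input with MACS2 (2.1.1.20160309). The deposited score is 10 times the −log10 q-value. The deposited fold is the summit pileup over its local background after a constant was added to each, which weighs more in shallow libraries. The deposited −log10 p-value and −log10 q-value were the authors' own, and the lowest −log10 q-value of a list was 1.30 to 1.32 (threshold 0.05).

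Peaks were matched to Ensembl BDGP6 genes. Percentiles were mid-ranks of the score within a list. Summit fragments and background were solved from fold and p-value, to within 0.01 in −log10 p, for 7931 of 7944 peaks in mock 1 (after a pileup scale of 0.919) and all peaks of the other lists, and tested on simulated data. Lists hold no read counts, so the count model of the study was not run. Groups were compared by two-sided exact permutation tests (2 against 2) in Python 3.11.15 with scipy 1.17.1. No interval for counting error is given, as totals are unknown.

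All 10 members were named. Of the further list, 31 of 31 names matched, Jafrac2 as Prx4, Tango7 as eIF3m and Ced-6 as ced-6, and the text names the 4 highest and 4 lowest by mean percentile and those with no start peak. Dredd, outside that rule, was named after its values were seen. Members and lists were chosen with earlier results of these data known.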

Additional observations from a re-analysis of the deposited data

How the results depend on the processing

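Of 152 recomputed values, 5 reversed, 8 counts or differences over the members or the region moved and 139 did neither. These 139 were not all unchanged, because a difference was placed there if its sign held and a count if it changed by a modest factor. Members below mock were 4 with windows of 500 and 1500 bp. With scores of at least 50, members with start peaks and with body peaks in all 4 libraries were 6 each. Shares over all genes were not computed for these settings. Some of the 139 repeat the main value by construction. Where a peak had to cover the TSS itself, 4 members had a start peak in all 4 libraries in place of 7, 1 member, Dark, had it in mock cells alone in place of 0, and 3 in place of 5 had knockdown percentiles below mock. Diap2, Dark and Drice give no difference under that setting. The count below mock was 3 with lists of the same length, 3 with ranks over shared start peaks and 1 with summit fragments over background, a measure chosen after seeing the data that put 1 member above in place of 0. The 75C difference was −0.5 peaks and reversed to 0.5 with lists of the same length. For Diap2 the difference of −8.28 points reversed to 6.41 with lists of the same length and to 3.95 with shared ranks. The causes were not tested, apart from the fewer peaks that a covered TSS or a shorter list leaves by construction. With scores of at least 50, Dark gave no value.

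Leaving out each library in turn gave 7 members with start peaks and 7 with body peaks in all remaining libraries, 0 mock-only members, 1 killer, 5 to 7 members below and 0 above. The 75C difference ranged from −1.5 to 0.5 peaks and that of Diap2 from −17.1 to 0.541 points. The ranges were −29.6 to −12.03 points for hid, −28.2 to −11.7 for Dark, −7.00 to −2.17 for Dronc, −22.3 to −13.3 for Drice, −12.2 to −2.50 for Dcp-1 and −6.88 to −5.61 for Diap1. Over the 7 members and all settings, 77 of 80 recomputed differences kept their direction, though many not their size. The replicate block repeats the mean difference and other windows or a covered TSS mostly the same peak, so the tally does not measure stability. With lists of the same length hid was at −13.9, Diap1 at −3.96, Dark at −5.75, Dronc at −1.16, Drice at −9.15 and Dcp-1 at −2.88 points. With shared ranks Dark was at −3.54, Dronc at −1.78, Drice at −10.1 and Dcp-1 at −4.44 points. Dronc was at −8.38 when ranked by fold, Diap2 at −12.7 with scores of at least 50, and Dark at −4.30 with a window of 1500 bp, which takes in the Paip1 start.

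The labels number the replicates alike in both groups, but deviations of same-numbered libraries were not positively correlated (r = −0.105 over 5062 genes). That value cannot decide whether the libraries were paired, because depth also differed between replicates. Depth was higher in mock 1 than in mock 2 but lower in knockdown 1 than in knockdown 2. With the replicate block, 6 members were lower after knockdown in both pairs and 0 were higher. The 75C difference stayed at −0.5 by construction, and the smallest p that the exact test can reach with 2 pairs was 0.5. The crossed pairing, added after seeing the data, gave 6 lower and 0 higher. All-gene shares were not computed for either pairing. Under the stricter rule, with both knockdown percentiles on 1 side of both mock ones, 43.1% of genes were below and 7.07% above.

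Depth limits these lists. The lowest summits called held 6 to 14 fragments, and lower signal at grim or skl was not detectable. At rpr the scaled summits reached the lowest summit called in both libraries without a call, and the part of depth was not tested. With 2 libraries against 2, the smallest p of 0.333 says nothing about stability.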
